A study of Mus musculus with 29 samples.

Results

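The ribosomal protein genes, which encode the protein part of the ribosome, were taken as the protein-coding mouse genes whose symbol starts with Rpl or Rps and a digit, together with Rplp0, Rplp1, Rplp2 and Rpsa. Kinase genes of the Rps6k series and pseudogene symbols ending in -ps were left out. The rule gave 86 of 21938 protein-coding genes. Of these, 77 encode the canonical proteins of the cytosolic ribosome. The other 9 were Rpl3l, Rpl7l1, Rpl10l, Rpl22l1, Rpl36al, Rpl39l, Rps27l and Rps27rt, which are paralogs, and Rps19bp1, which encodes a protein that binds RPS19 and is no ribosomal subunit.

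Genome occupancy of HA-tagged transcription factors was mapped by ChIP-seq with an anti-HA antibody. The factors were made from doxycycline-inducible transgenes in NIH-3T3 cells, a line of mouse embryonic fibroblasts. All samples had received 500 ng/ml doxycycline overnight and had been fixed with 1% formaldehyde. Lists of peaks were available for 28 samples of 24 constructs, and 1 sample of input chromatin was not used here. The constructs were 21 wild-type factors (BHLHB8-HA, BRACHYURY-HA, CDX2-HA, DLX1-HA, DLX6-HA, DUXBL-HA, EBF1-HA, FOXA1-HA, HLF-HA, MAX-HA, NANOG-HA, OCT4-HA, PRR3-HA, RHOX11-HA, SIX6-HA, SOX15-HA, SOX2-HA, TEAD1-HA, THAP4-HA, TOX3-HA and ZFP319-HA), the 2 mutants FOXA1_RR-HA and FOXA1_SW-HA, and SOX2-YPET OCT4-HA, in which cells made OCT4-HA alongside a fusion of SOX2 and the YPet fluorescent protein. There were 2 lists each for FOXA1-HA, OCT4-HA, BHLHB8-HA and SOX2-HA, and 1 list for each of the other 20 constructs. The lists ran from 52 to 61991 peaks and hold positions only, so the sequencing depth behind them is unknown. All factors were overexpressed, and the study describes the duplicates as biological replicates.

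Ribosomal proteins form the small (40S, Rps and Rpsa) and large (60S, Rpl and Rplp) subunits of the ribosome and are made in nearly equal amounts in every growing cell. Their genes are short, have several exons and are among the most strongly transcribed of a fibroblast. Their mRNAs start with a run of pyrimidines, the 5′ terminal oligopyrimidine tract, which ties their translation to nutrient signals, and many of their introns carry small nucleolar RNAs (snoRNAs), which guide chemical modification of ribosomal RNA.

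A gene was counted as occupied when a peak shared at least 1 bp with its body or the 1 kb upstream. Such windows had a median length of 4328.5 bp for the ribosomal protein genes and 18425 bp for all protein-coding genes, so the shares of genes with a peak do not compare equal lengths. Over all lists the 86 windows held 471 peaks. A median of 3 constructs (quartiles 2 and 4) had a peak at a ribosomal protein gene, and 2 (quartiles 1 and 5) at a protein-coding gene of any kind. The medians were 2 for 78 genes of mitochondrial ribosomal proteins, 5 for 20 other translation genes such as elongation factors, and 3.5 for 18 genes of ribosome assembly. Large and small subunit genes both had a median of 3, and the 9 genes outside the canonical set had 2. No construct had a peak at 5 of 86 genes (5.81%), against 24.9% of all protein-coding genes. The share was also low for mitochondrial ribosomal protein genes (2.56%), translation genes (0%) and assembly genes (5.56%). Among the 5 were Rps3 and Rps16, which encode core proteins of the small subunit. The others were Rpl39, which encodes a small protein of the exit tunnel, and the retrogene copies Rpl10l and Rps27rt. The windows of 31 of the 86 genes overlap that of another protein-coding gene, such as Rps2 with Rnf151, Rpl7a with Med22 and Rpl36al with Mgat2, and a peak there cannot be assigned to either gene.

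**Figure D1:**
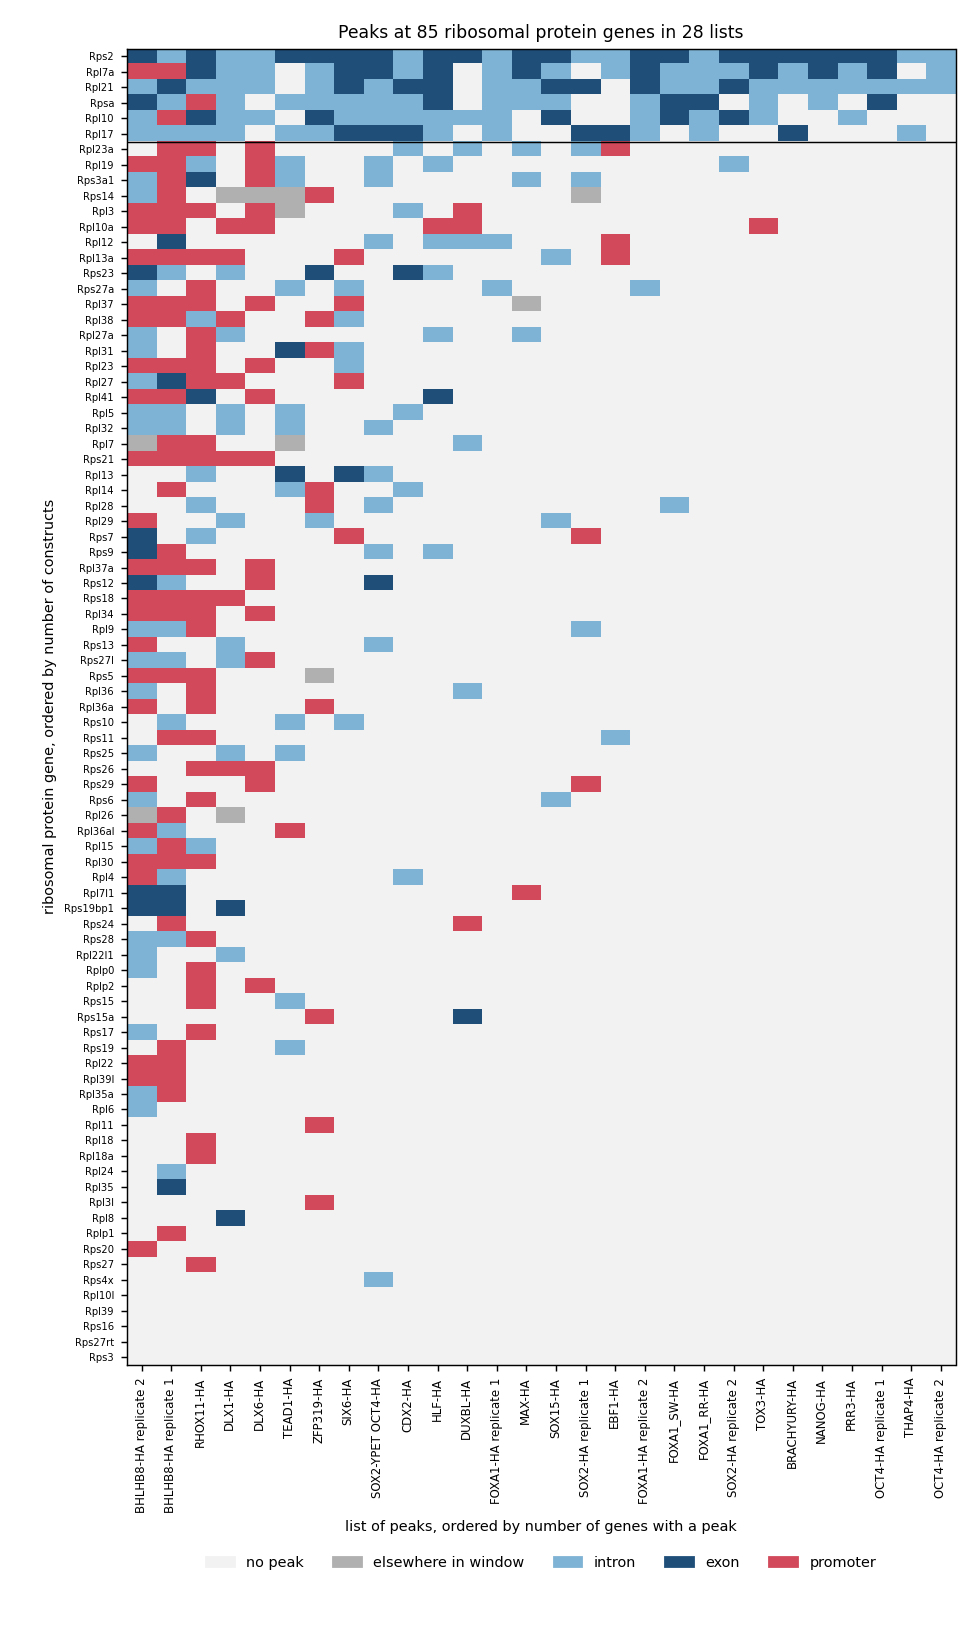
Peaks at 85 of the 86 ribosomal protein genes (rows, ordered by the number of constructs) in each of the 28 lists (columns, ordered by the number of genes with a peak). The colour gives the position of the peak midpoint, with the promoter shown before exon, intron and elsewhere where a gene has several peaks. The 6 genes above the line are occupied by 15 to 24 constructs and mostly in introns and exons, and the genes below it by 8 or fewer.

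Occupancy was very uneven within the gene family. 7 genes had peaks of 10 or more constructs (8.14%, against 7.05% of all protein-coding genes), and each of the 7 had at least 15. Rps2 was occupied by all 24 constructs and in all 28 lists. Rpl21 and Rpl7a were occupied by 21 constructs each, Rpl10 and Rpsa by 17 each and Rpl17 by 15. Rpl23a came next with 8 constructs, followed by Rpl19 and Rps3a1 with 7, and Rps14, Rpl3, Rpl10a, Rpl12 and Rpl13a with 6. The window of Rps14 is 32449 bp long and overlaps that of Ndst1. Its peaks of DLX1-HA, DLX6-HA, SOX2-HA and TEAD1-HA lay 11321 to 26137 bp upstream of the start of the main transcript. Since long genes can gather peaks of many constructs at separate places, single sites were counted too, after merging touching peaks of all lists. A site with peaks of 10 or more constructs lay in the windows of the same 7 ribosomal protein genes (8.14%), against 1.13% of all protein-coding genes, 1 of 78 mitochondrial ribosomal protein genes and none of the 20 translation or the 18 assembly genes. Of 155 merged sites at ribosomal protein genes 7 were of this kind (4.52%), as were 726 of 168506 sites genome-wide (0.431%). These 7 genes were set apart by the peaks themselves, so the peak numbers are given as a description.

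Rps2 encodes a protein of the small subunit, and RPSA is a small subunit protein also known as the laminin receptor. Rpl21, Rpl7a and Rpl17 encode large subunit proteins, and RPL10 joins the large subunit late in its assembly. The constructs without a peak at Rpl7a were DUXBL-HA, TEAD1-HA and THAP4-HA. Those without one at Rpl21 were DUXBL-HA, EBF1-HA and TEAD1-HA. At Rpsa, BRACHYURY-HA, DLX6-HA, DUXBL-HA, EBF1-HA, PRR3-HA, SOX2-HA and THAP4-HA had no peak. At Rpl10 it was BRACHYURY-HA, EBF1-HA, MAX-HA, NANOG-HA, OCT4-HA, TEAD1-HA and THAP4-HA. DUXBL-HA thus had peaks at Rps2 and Rpl10 only among the 7 genes, although 23.9% of all protein-coding genes were occupied in its list. At Rpl17, 9 constructs had no peak, namely DLX6-HA, DUXBL-HA, FOXA1_SW-HA, MAX-HA, NANOG-HA, OCT4-HA, PRR3-HA, SOX15-HA and TOX3-HA.

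The 7 genes were occupied inside the transcribed region and seldom at the promoter, here from 1 kb upstream to 100 bp downstream of the start of the main protein-coding transcript. Of their 175 peaks, 4 had the midpoint in the promoter (2.29%), 111 in an intron and 59 in an exon, and the median midpoint lay 1457 bp downstream of the start. At least 1 bp of an exon was touched by 94.3% of these peaks and of coding sequence by 89.7%. The other 79 genes had 296 peaks, of which 131 were in the promoter (44.3%), with a median midpoint 81 bp downstream of the start. Peaks were wide at the 7 genes, with a median of 704 bp (169 to 2052 bp), against 323.5 bp (143 to 1665 bp) at the others. Over all 86 genes 28.7% of peak midpoints were in the promoter, which takes up 20.5% of the windows, 17.4% in exons (16.5% of the windows) and 48.6% in introns (45.8%).

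**Figure D2:**
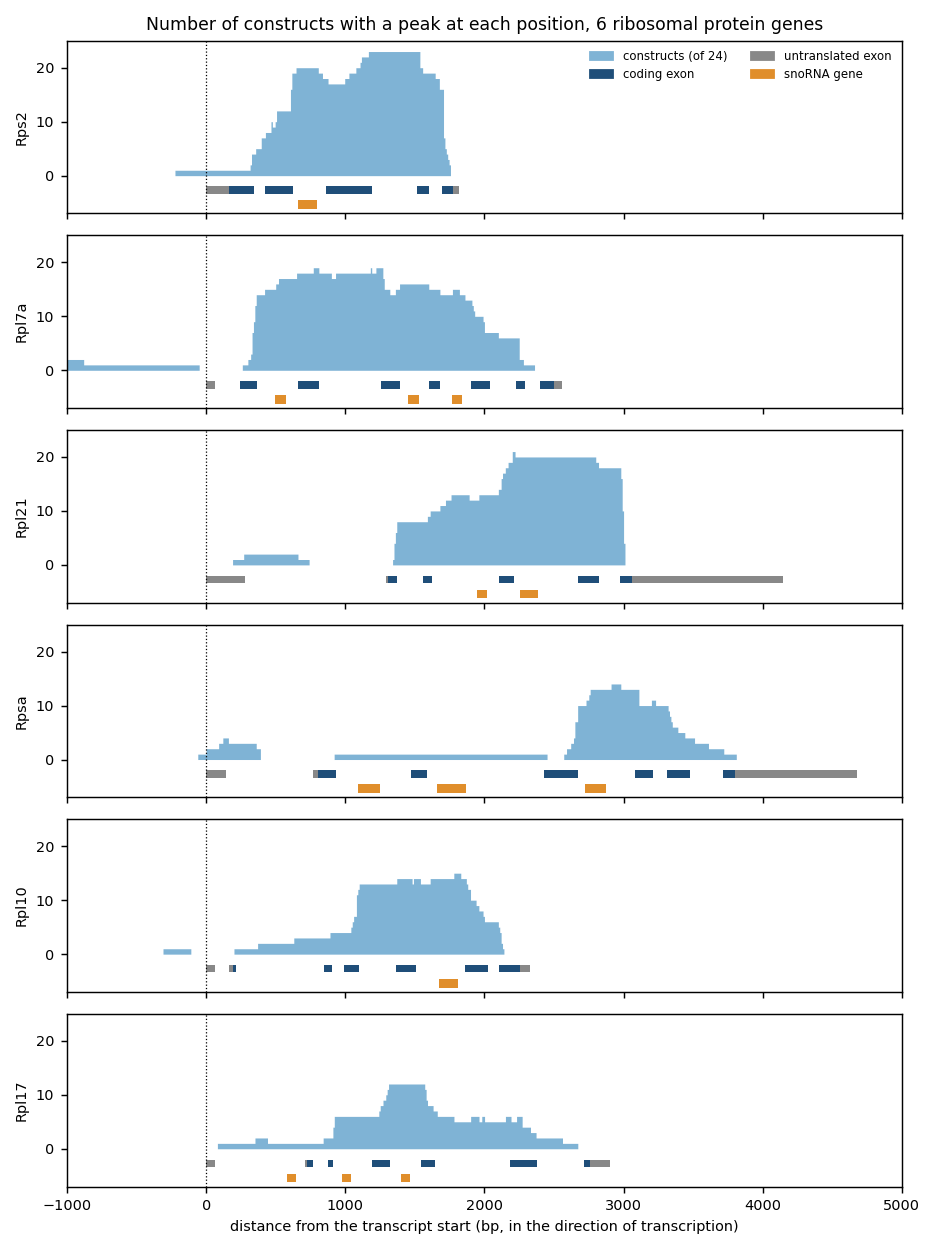
Number of constructs, of 24, with a peak at each position (vertical axis) along 6 of the 7 widely occupied ribosomal protein genes, against the distance from the transcript start in bp in the direction of transcription. Coding exons, untranslated exons and snoRNA genes are drawn under each track, and the dotted line marks the start. The blocks lie within the gene bodies and reach 23 constructs at Rps2, 21 at Rpl21 and 12 at Rpl17.

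At Rps2 (chr17:24718116-24721929, plus strand, GRCm38), 23 constructs shared a stretch of 370 bp that started 1159 bp downstream of the transcript start. The stretch runs from exon 3 through the intron after it into exon 4 and holds 50 coding and 320 intronic bases, of which 175 are marked as repeats in the reference sequence. The missing construct was TEAD1-HA, whose only Rps2 peak spanned the start site, with its midpoint at 121 bp. Peaks at Rps2 were 201 to 1401 bp wide, with a median of 798 bp. At Rpl7a (chr2:26910764-26913318, plus strand) 19 constructs shared 49 bp at the border of an intron and exon 4, and at Rpl21 (chr5:146832890-146837032, plus strand) all 21 constructs shared 17 bp of exon 4. At Rpl10 (chrX:74270812-74273135, plus strand) 15 constructs shared 48 bp that overlap Snora70. At Rpsa (chr9:120127689-120132369, plus strand) 14 constructs shared 72 bp of an intron. The shared stretch of Rpl17 covered 255 bp and 12 constructs. The start sites of these genes were covered by no construct at Rpl7a, Rpl21, Rpl10 and Rpl17, by 1 at Rps2 and by 2 at Rpsa. These stretches are shown because most of the factors were called there, read 5′ to 3′ on the gene's strand from GRCm38, with coding bases in capitals and, for Rps2, only the first 200 bases.
Rps2 (chr17:24721269-24721468, plus strand): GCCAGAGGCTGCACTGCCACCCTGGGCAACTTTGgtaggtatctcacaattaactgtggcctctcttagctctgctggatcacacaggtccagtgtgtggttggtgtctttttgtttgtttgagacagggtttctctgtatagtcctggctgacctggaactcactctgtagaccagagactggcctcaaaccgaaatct
Rpl7a (chr2:26911977-26912025, plus strand): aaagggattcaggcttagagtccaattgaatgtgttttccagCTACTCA
Rpl21 (chr5:146835085-146835101, plus strand): ATTGTCAACAAGCAGGT
Rpsa (chr9:120130594-120130665, plus strand): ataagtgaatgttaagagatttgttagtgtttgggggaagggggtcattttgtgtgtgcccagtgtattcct
Rpl10 (chrX:74272585-74272632, plus strand): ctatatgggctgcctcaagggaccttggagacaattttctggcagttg

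The borders of these peaks fell near exon borders. In the direction of transcription, 92 of the 168 first bases of peaks that lay within the 7 transcripts were within 50 bp of the end of an exon (54.8%), where 18.9% of transcript positions are. Of 171 last bases, 108 were within 50 bp of the start of an exon (63.2%, against 18.9% of positions). At Rpl21, the peaks of 18 constructs ended 2976 to 3008 bp from the transcript start, and exon 6 starts at 2974 bp. The peaks of 8 constructs there began at 1340 to 1367 bp, next to the end of exon 2 at 1372 bp. At Rps2 the peaks of 15 constructs ended at 1696 to 1741 bp, at the beginning of exon 5 (1693 bp). The most crowded 50 bp of first and of last bases was found for each gene, and in 13 of 14 cases its median lay 1.5 to 33.5 bp from an exon border. The exception was the last bases at Rpsa. At the other 79 genes 37.3% of 126 first bases were near the end of an exon (12.2% of positions) and 15.8% of 209 last bases near the start of one (12.2% of positions). The spliced sequences of ribosomal protein genes are repeated in many processed pseudogenes, and the authors kept uniquely aligned reads only. Of 294 annotated pseudogene copies with a -ps symbol, 23 had a peak in any list, and 21 of the 28 lists had none. The part of read alignment in the borders or in the positions of these peaks was not tested.

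All of the 7 genes carry snoRNA genes in their introns, as do 30 of the 86 ribosomal protein genes. The 30 host genes had a median of 4 constructs and the 56 others 3, and the highest number among the 56 was 7. Among all protein-coding genes, 279 host snoRNAs, and 47 of these (16.8%) had peaks of 10 or more constructs. Their median window was 40005 bp long.

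**Figure D3:**
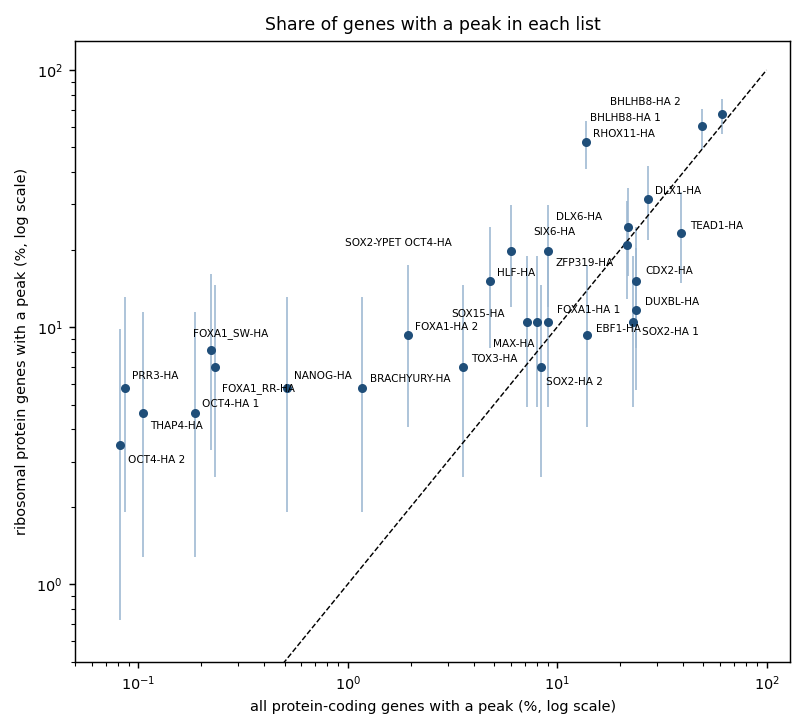
Share of the 86 ribosomal protein genes with a peak (vertical axis, %, log scale, with 95% exact binomial intervals for counting error) against the share of all 21938 protein-coding genes with a peak (horizontal axis, %, log scale) in each of the 28 lists. The number after a name is the replicate, and the dashed line marks equal shares. The lists with the fewest genes lie far above the line with 3 to 7 ribosomal protein genes each, RHOX11-HA lies above it with 45, and TEAD1-HA, CDX2-HA, DUXBL-HA and SOX2-HA replicate 1 lie below it.

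In lists with few peaks, the occupied ribosomal protein genes were almost all among these 7. In the 6 lists of fewer than 200 peaks, 3 to 7 ribosomal protein genes were occupied. PRR3-HA, a zinc finger protein, had 62 peaks, 5 of them at ribosomal protein genes (8.06% of its list), with Rps2, Rpl7a, Rpl21 and Rpl10 among them. It occupied 5.81% of these genes and 0.0866% of all protein-coding genes. THAP4-HA occupied 4 (4.65%, against 0.105%), and 6.90% of its 58 peaks were there. OCT4-HA, a POU factor of pluripotent cells, occupied Rps2, Rpl7a and Rpl21 in both replicates and Rpsa in replicate 1 only, which is 4.65% against 0.187% of all genes in replicate 1 and 3.49% against 0.0820% in replicate 2. NANOG-HA (396 peaks) and BRACHYURY-HA (720 peaks) also occupied 5 of the 7 genes and no other ribosomal protein gene, 5.81% each, against 0.511% and 1.18% of all genes. In the 9 lists of more than 10000 peaks, 0.0359% to 0.164% of the peaks lay at ribosomal protein genes. The exact binomial intervals of such shares are wide, from 0.725% to 9.86% for the 3 genes of OCT4-HA replicate 2.

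The FOXA1 lists show the same genes at very different list sizes. FOXA1 is a forkhead factor that opens chromatin in liver and other endoderm tissues. Wild-type FOXA1-HA occupied 9 ribosomal protein genes in replicate 1 (10.5%, against 9.04% of all genes) and 8 in replicate 2 (9.30%, against 1.94%). All 8 of replicate 2 were among the 9 of replicate 1, and they comprised the 7 widely occupied genes and Rps27a, which encodes a fusion of ubiquitin and a small subunit protein. FOXA1_RR-HA occupied 6 (6.98%, against 0.232%) and FOXA1_SW-HA 7 (8.14%, against 0.223%). The SW mutant had no peak at Rpl17 and a further peak 821 bp downstream of the start of Rpl28, a large subunit gene. Over all protein-coding genes the wild-type lists covered 1984 and 426 genes and the mutant lists 51 and 49. With 2 lists of the wild type and 1 of each mutant, the numbers are set side by side without a test.

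SOX2-YPET OCT4-HA, with 5146 peaks, occupied 17 ribosomal protein genes (19.8%, against 6.03% of all genes). OCT4-HA alone, with 95 and 52 peaks in its replicates, occupied 4 and 3. The ratio of the share of ribosomal protein genes to that of all genes was 3.28 with SOX2-YPET and 24.9 and 42.5 without. The higher number thus came with a longer list, and a gain particular to these genes was not tested. The 17 included all 7 widely occupied genes. The other 10 were Rpl12, Rps3a1, Rpl32, Rps9, Rpl28, Rps13, Rpl13, Rps12, Rpl19 and Rps4x, with midpoints 477 to 4557 bp downstream of the start. No midpoint lay in a promoter, where 0.339% of all genes had one in this list. SOX2-HA, the partner factor, occupied 9 in replicate 1 (10.5%, against 23.0%) and 6 in replicate 2 (6.98%, against 8.38%), with Rps2 and Rpl21 in both. SOX15-HA, a related HMG factor, occupied 9 (10.5%, against 7.21%).

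Of the 28 lists, that of RHOX11-HA had the largest difference between the share of ribosomal protein genes and that of all genes, 38.6 percentage points. RHOX11 is a homeodomain protein of a reproductive gene cluster on the X chromosome. It occupied 45 of 86 ribosomal protein genes (52.3%, exact 95% interval 41.3% to 63.2%), against 13.7% of all protein-coding genes, and 1.03% of its 4579 peaks lay there. The share was also above that of all genes for mitochondrial ribosomal protein genes (39.7%), translation genes (55.0% of 20) and assembly genes (44.4% of 18). BHLHB8-HA, a basic helix-loop-helix factor of secretory cells also named MIST1, occupied 52 ribosomal protein genes in replicate 1 (60.5%, against 49.1%) and 58 in replicate 2 (67.4%, against 61.5%), 42 of them in both. In the 2 replicates the shares were higher still for mitochondrial ribosomal protein genes (70.5% and 87.2%), translation genes (85.0% and 90.0%) and assembly genes (72.2% and 88.9%). The windows of these sets are longer. The difference between the share of ribosomal protein genes and that of all genes was 11.3 percentage points in replicate 1 and 5.97 in replicate 2, so the replicates differed widely. The homeodomain factors DLX1-HA and DLX6-HA occupied 27 (31.4%, against 27.1%) and 21 (24.4%, against 21.9%). For DLX1-HA the share was higher for mitochondrial ribosomal protein genes (35.9%), translation genes (40.0%) and assembly genes (50.0%). For DLX6-HA it was lower in those sets (14.1%, 20.0% and 22.2%). SIX6-HA occupied 17 (19.8%, against 9.05%), HLF-HA 13 (15.1%, against 4.75%), MAX-HA 9 (10.5%, against 7.99%) and TOX3-HA 6 (6.98%, against 3.57%), and ZFP319-HA 18 (20.9%, against 21.6%).

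In several lists the share of ribosomal protein genes was lower than that of all genes. TEAD1-HA, a TEA domain factor of the Hippo pathway, occupied 20 (23.3%, against 39.2%). CDX2-HA, an intestinal homeodomain factor, occupied 13 (15.1%, against 23.9%), and DUXBL-HA 10 (11.6%, against 23.9%). EBF1-HA, a factor of B cells and fat cells, occupied 8 (9.30%, against 13.9%). The window lengths differ as given above. Per 100 kb of window the peak midpoints were denser at ribosomal protein genes in each of these lists, for example 4.11 against 0.989 for TEAD1-HA and 2.16 against 0.934 for DUXBL-HA. For RHOX11-HA the densities were 10.2 and 0.275 per 100 kb. Windows of all genes hold more sequence far from the start, so these densities do not compare like positions. TEAD1-HA had a midpoint in the promoter of 1.16% of ribosomal protein genes and 10.6% of all genes. More than 100 and up to 500 bp downstream, the shares were 16.3% and 16.4%. For DUXBL-HA they were 3.49% and 2.39% in the promoter and 1.16% and 0.375% downstream. Over the 24 constructs, the share of ribosomal protein genes was higher than that of all genes for 18. The median difference was 4.36 percentage points. Between duplicate lists of the same construct, the difference of a single list had a pooled SD of 4.88 points, which is not the error of the median. The 7 widely occupied genes enter these shares. For BRACHYURY-HA, FOXA1_RR-HA, NANOG-HA, OCT4-HA, PRR3-HA and THAP4-HA they were 100% of the occupied ribosomal protein genes. Over the other 79 genes the share of these constructs was thus lower than that of all genes. The 7 genes were 66.7% of the occupied ones for SOX15-HA and 15.6% for RHOX11-HA. Of the other 79 genes, RHOX11-HA occupied 38, DLX1-HA 20, DLX6-HA 17, SIX6-HA 10 and SOX2-YPET OCT4-HA 10. HLF-HA occupied 7, MAX-HA 5, SOX15-HA 3, TOX3-HA 1 and FOXA1_SW-HA 1. BHLHB8-HA occupied 45 and 51 in its replicates, and FOXA1-HA 2 and 1. The median difference was not computed over the 79 genes. Neither it nor the count of 18 describes the family as a whole.

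Promoters were occupied by 13 of the 24 constructs. The 11 others were BRACHYURY-HA, CDX2-HA, all 3 FOXA1 constructs, NANOG-HA, OCT4-HA with and without SOX2-YPET, PRR3-HA, SOX15-HA and THAP4-HA. None of them had a peak midpoint in the promoter of a ribosomal protein gene. In their lists only 0.00915% (PRR3-HA) to 1.04% (CDX2-HA) of all protein-coding genes had one. The lack of one at 86 genes is close to these shares and sets no ribosomal protein gene apart. RHOX11-HA had a promoter midpoint at 31 of 86 genes (36.0%, against 8.49% of all protein-coding genes and 28.2% of mitochondrial ribosomal protein genes). BHLHB8-HA had one at 31 genes in replicate 1 (36.0%, against 19.7%) and 24 in replicate 2 (27.9%, against 19.1%), 17 of them in both, and the shares of mitochondrial ribosomal protein genes were higher still (46.2% and 33.3%). DLX6-HA had 16 (18.6%, against 5.74%) and DLX1-HA 7 (8.14%, against 6.91%). ZFP319-HA, a zinc finger protein, had 9 (10.5%, against 3.38%), SIX6-HA 4 (4.65%, against 1.52%) and TEAD1-HA 1 (1.16%, against 10.6%).

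**Figure D4:**
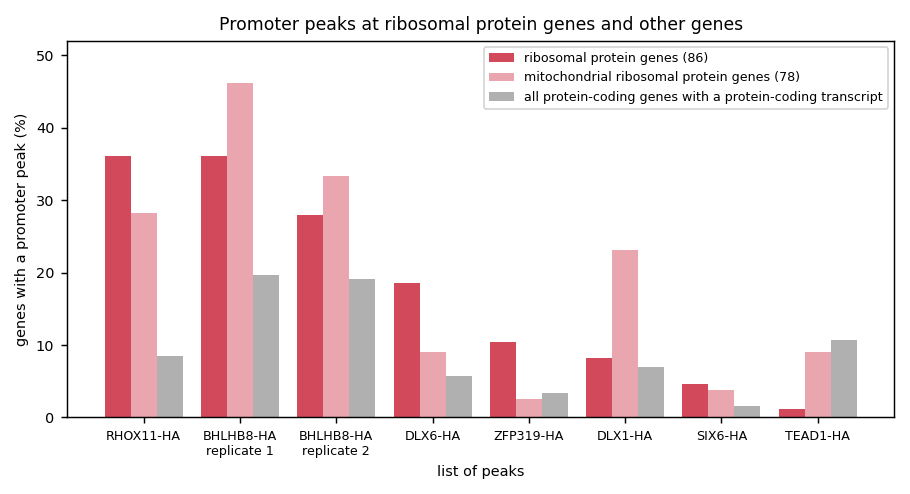
Share of genes with a peak midpoint in the promoter (vertical axis, %) in 8 lists, for 86 ribosomal protein genes, 78 mitochondrial ribosomal protein genes and all protein-coding genes with a protein-coding transcript. The bar of ribosomal protein genes is highest for RHOX11-HA (36.0%) and BHLHB8-HA replicate 1 (36.0%) and lowest for TEAD1-HA (1.16%), and mitochondrial ribosomal protein genes exceed it for both BHLHB8-HA lists, DLX1-HA and TEAD1-HA.

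The factors differed in where they sat. The 31 promoter peaks of RHOX11-HA had a median midpoint 57 bp upstream of the start (309 bp upstream to 86 bp downstream), 29 of them within 200 bp upstream and 100 bp downstream, and 31 of its 47 peaks at ribosomal protein genes covered the start site itself (66.0%). Promoter peaks of DLX6-HA had their median midpoint 176 bp upstream, those of BHLHB8-HA 208 and 331 bp upstream in the 2 replicates, and those of DLX1-HA 399 bp upstream. The 9 of ZFP319-HA had a median of 0 bp and ranged from 805 bp upstream to 71 bp downstream. TEAD1-HA lay on the other side of the start. It had 14 genes with a midpoint more than 100 and up to 500 bp downstream (16.3%), with a median of 242.5 bp (121 to 400 bp). The share was 16.4% for all genes and 17.9% for mitochondrial ribosomal protein genes, so this position is not particular to ribosomal protein genes. The window was chosen after the positions had been seen. The genes included Rps2, Rpsa and Rpl17, where most other constructs were found far downstream. At Rpsa, BHLHB8-HA (182 and 212 bp in the 2 replicates), DLX1-HA (221 bp) and RHOX11-HA (44 bp) also had a midpoint near the start.

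**Figure D5:**
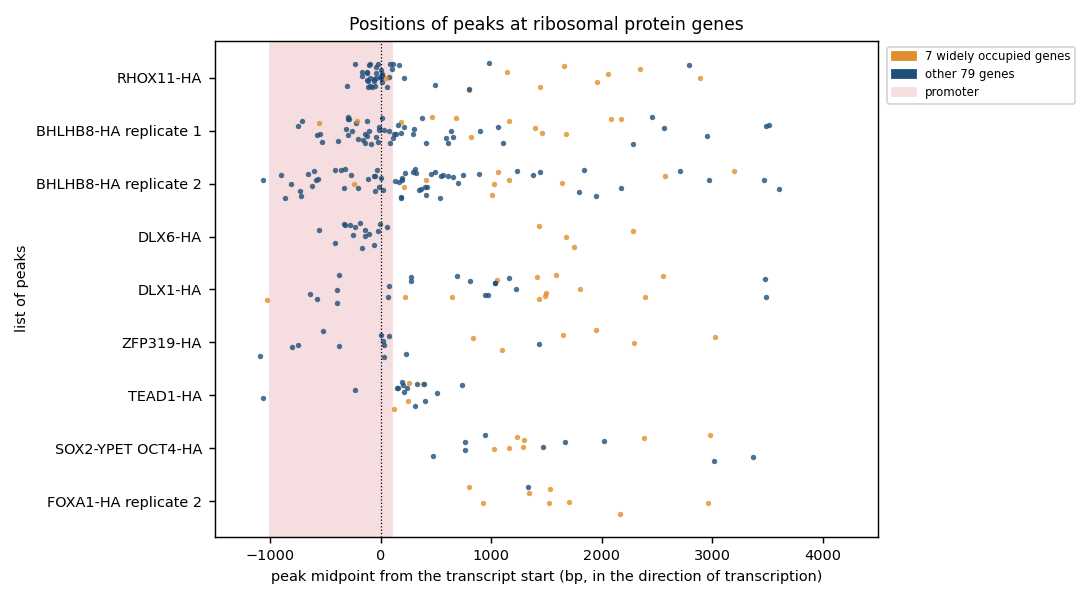
Distance of each peak midpoint from the transcript start (horizontal axis, bp, in the direction of transcription) at ribosomal protein genes in 9 lists (rows, with points spread vertically for display). Shading marks the promoter, and 19 peaks lie outside the plotted range. RHOX11-HA points gather around the start, 14 of the TEAD1-HA points lie 121 to 400 bp downstream, and the points of the 7 widely occupied genes lie mostly in the gene bodies.

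Promoters with several factors were compared gene by gene. Rpl10a, a large subunit gene, had promoter peaks of 6 constructs, all with the midpoint upstream of the start: BHLHB8-HA at 386 and 600 bp in the 2 replicates, DLX1-HA at 637 bp, DLX6-HA at 413 bp, DUXBL-HA at 333 bp, HLF-HA at 337 bp and TOX3-HA at 512 bp. RHOX11-HA was not among them. Rpl13a, whose protein also has a role in the control of translation, had 5, with RHOX11-HA nearest to the start at 104 bp and EBF1-HA farthest at 788 bp. Rpl23a, Rpl3, Rpl37 and Rps21 had 4 each, and Rpl23, Rpl27, Rpl38 and Rpl37a 3 each. At Rpl23a the midpoints were 7 bp (RHOX11-HA), 15 bp (BHLHB8-HA replicate 1), 53 bp (EBF1-HA) and 138 bp (DLX6-HA) upstream, and other constructs lay downstream, CDX2-HA at 154 bp, SOX2-HA replicate 1 at 1332 bp and both DUXBL-HA and MAX-HA at 2310 bp. At Rps21, RHOX11-HA and DLX6-HA were 113 and 108 bp upstream while BHLHB8-HA (313 and 331 bp) and DLX1-HA (399 bp) were farther out. RHOX11-HA and DLX6-HA shared 9 promoters, which is 29.0% of those of RHOX11-HA and 56.2% of those of DLX6-HA, among them Rpl23, Rpl34, Rplp2 and Rps26. RHOX11-HA and BHLHB8-HA replicate 1 shared 13, or 41.9% of either. Over all 86 genes, 36.0% had a promoter midpoint of RHOX11-HA, 36.0% of BHLHB8-HA replicate 1 and 18.6% of DLX6-HA. The overlap of RHOX11-HA with BHLHB8-HA is thus near the share over all 86 genes, and neither overlap was tested.

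The start sites of 6 of these genes are shown from 60 bases upstream to 10 bases downstream on the gene's strand (GRCm38), with the longest run of pyrimidines near the annotated start in capitals. Rpl37, Rpl37a, Rps21 and Rpl27 were chosen as promoters with RHOX11-HA and other peaks and a run of 7 or more bases, Rpl13a and Rpl23a as occupied promoters with a run of 4.
Rpl37 (chr15:5116585-5116655, plus strand): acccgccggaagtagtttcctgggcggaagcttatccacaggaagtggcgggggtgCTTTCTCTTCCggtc
Rpl37a (chr1:72711230-72711300, plus strand): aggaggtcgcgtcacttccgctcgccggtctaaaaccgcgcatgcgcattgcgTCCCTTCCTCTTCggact
Rps21 (chr2:180257317-180257387, plus strand): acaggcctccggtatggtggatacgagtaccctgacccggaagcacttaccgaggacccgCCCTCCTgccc
Rpl27 (chr11:101442238-101442308, plus strand): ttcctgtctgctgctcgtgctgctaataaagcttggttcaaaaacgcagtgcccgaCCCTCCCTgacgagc
Rpl13a (chr7:45128751-45128821, minus strand): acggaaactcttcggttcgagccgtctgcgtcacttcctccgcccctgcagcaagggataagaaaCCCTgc
Rpl23a (chr11:78183574-78183644, minus strand): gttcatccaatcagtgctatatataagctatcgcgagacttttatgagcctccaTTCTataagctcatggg

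A run of at least 8 pyrimidines within 5 bases of the annotated start was found in 26 of 86 ribosomal protein genes (30.2%), in 9.55% of all protein-coding genes and in 7.69% of mitochondrial ribosomal protein genes. It was present in 14 of the 31 genes with a RHOX11-HA promoter peak (45.2%) and in 12 of the 55 without (21.8%). The median run was 6 bases in the former and 4 in the latter. The starts are those of the annotation and were not measured in these cells.

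Promoter sequences from 250 bases upstream to 50 downstream were found in RefSeq (GRCm38.p6) for 66 of the 86 genes and were searched on both strands. CCGGAAG, the core bound by ETS factors, was present in 26 (39.4%), against 11.9% of 20150 promoters. It was present in 10 of the 21 with a RHOX11-HA promoter peak, in 16 of the other 45 and in 9 of the 13 with one of DLX6-HA. AAGATGGC, bound by YY1, was present in 6 (9.09%, against 3.11%), the E-box CACGTG in 6 (9.09%, against 8.03%), the TEAD sequence CATTCC in 7 (10.6%, against 13.4%) and the homeodomain sequence TAATTA in 1 (1.52%, against 4.48%).

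The sequences that some of these factors are known to bind were counted in their peaks at ribosomal protein genes and in their lists as a whole, without a test of the difference. In the central 200 bp of BHLHB8-HA peaks the E-box CAGCTG was present in 14.7% of 68 peaks in replicate 1 and 11.4% of 79 in replicate 2, against 37.8% and 35.1% of all peaks. The forkhead sequence TGTTTAC was in none of 11 and none of 9 FOXA1-HA peaks, against 25.8% and 23.1%. In each replicate 8 of these peaks lay at the 7 widely occupied genes. Their median width was 396 and 890.5 bp, against 267 and 252 bp in the lists. The central 200 bp thus cover a smaller part of them. The CDX2 sequence TTTATNG was in 21.4% of 14 peaks, against 53.7%. ACAATG was in 44.4% of 9 SOX2-HA peaks in replicate 1 (27.2% of the list) and 28.6% of 7 in replicate 2 (40.6%), so the replicates differed in direction. TAATTA was in 6.06% of 33 DLX1-HA peaks (8.30% of the list) and 9.09% of 22 DLX6-HA peaks (10.2%). The AP-1 sequence TGANTCA, bound by FOS and JUN, was in 3.43% of the 175 peaks at the 7 widely occupied genes, in 5.74% of the 296 at the other genes and in 20.4% of all 304922 peaks. Peaks of the same gene in several lists share sequence, so these counts do not come from independent sites.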

How the data were processed

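ChIP-seq with an anti-HA antibody was performed by the authors in NIH-3T3 cells. The authors aligned reads to mm10 with STAR (version 2.5.3a in the submitters' processing notes), kept unique alignments, removed duplicates with Picard, called peaks for each sample with MACS2 (2.1.1.20160309) and left out peaks found in the input or in blacklisted regions. The deposited files hold each peak's chromosome, start and end in bp and no score, height or read number, so depth is unknown. Intervals cover counting error only.

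The labels gave the groups and the replicate numbers. The members and the comparison lists were chosen with earlier results of these data known, and no p-value was computed. Genes, exons and snoRNAs came from GENCODE vM21 on GRCm38, whose chromosome lengths contained all peaks. The main transcript of a gene was the APPRIS principal one with the best support and the longest coding sequence. A peak belonged to a gene when 1 bp or more overlapped its body or the 1 kb upstream, and its midpoint decided its class, the promoter first, then coding exon, untranslated exon and intron. Shares carry 95% exact (Clopper-Pearson) intervals where given. Sequences came from the RefSeq genome sequence of GRCm38. Counting was tested on simulated data, in which none of 200 planted genes in each of 6 sets was missed. Python 3.11.15, NumPy 2.4.6, SciPy 1.17.1, pysam 0.24.0 and Matplotlib 3.10.9 were used.

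The genes named were the 15 with the most constructs, those with a peak in a list of fewer than 200 peaks, the 10 with promoter peaks of the most constructs, those with no peak and those outside the canonical set. Others were named as members of a set described. The border positions, the TEAD1-HA window and the genes printed as sequence were chosen after the data had been seen. Alternatives were other windows, midpoints in place of overlap, peaks of at least 300 bp, canonical genes, autosomes, other promoter and exon definitions and leaving out each duplicate list. Input chromatin was not used here, and 1 gene that these rules take in is not reported here by name.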

Additional observations from a re-analysis of the deposited data

How the results depend on the processing

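No paired analysis was possible because no result comes from a test and only 4 constructs have duplicate lists. The 5 summary values were recomputed under 51 alternatives. Of these, 49 stayed within 1.5 times the value (counts) or within the SD between duplicates (shares). The SD was 4.88 points beside a median difference in share of 4.36 points, and 31.7 points beside a mean exon share of 25.1%. It is the spread of single lists and not of the median or mean over constructs. These bounds exceed the values themselves, so the number that stayed within them says little about stability. With peaks of at least 300 bp, the median number of constructs per ribosomal protein gene was 1.5 in place of 3. With any overlap counted in place of the midpoint, the mean share of peaks on exons over constructs was 83.2% in place of 25.1%. Leaving out each duplicate list in turn, the median difference in share was 3.84 to 4.50 percentage points, the median number of constructs 3 in each case, the mean promoter share 15.4% to 16.3% and the mean exon share 23.3% to 26.4%. The SD between duplicates was 9.28 points for promoter shares and 31.7 points for exon shares, so neither can be told apart between most constructs. The depth of the libraries is unknown, and 20 constructs have no replicate error of their own.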
